A study of Mus musculus with 5 samples.

Results

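The genes described here encode the proteins of the mitochondrial ribosome. They are the rows of the deposited count table whose Entrez identifier maps to a mouse symbol beginning with Mrpl or Mrps, with pseudogenes left out, and they number 78 of 27179 rows. RNA was sequenced from ear skin of mice of the B6 strain. Mice without Cd1d, whose product displays lipid antigens to natural killer T cells, gave 2 libraries titled Cd1d -/- and tagged as Cd1d KO (called KO 1 and KO 2). The other 3 libraries are titled Cd1d +/- but tagged as WT (called control 1, 2 and 3). Because title and tag disagree, the second group is called control, and whether those mice carried a disrupted allele is not settled by the labels. The labels give no treatment, age or sex, and they leave it unsaid whether the libraries come from separate mice, so the p-values below measure the spread between these 5 libraries, which may be technical.

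Mitochondria keep a small genome that encodes a few core subunits of the respiratory chain, and they translate those messages on ribosomes of their own. The RNA of these ribosomes is transcribed inside the organelle, whereas all of their proteins are encoded in the nucleus, made in the cytosol and imported. Some of the proteins descend from those of the bacterial ancestor, and others were added during the evolution of the organelle and have no bacterial counterpart. The small subunit reads the message and the large subunit joins the amino acids, with a flexible stalk that recruits translation factors, a central protuberance that contacts the transfer RNAs, and an exit tunnel docked on the inner membrane.

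The libraries held 54596686 and 45270805 counts in KO 1 and KO 2, against 79160005, 73692964 and 32353957 in controls 1 to 3, so that 1 read was worth between 0.0119 and 0.0303 CPM (counts scaled to library size, with TMM factors). Cd1d1, the targeted gene, had 61 and 48 counts in the KO libraries, against 557, 757 and 182 in the controls, a log2 fold change of -2.67 (SE 0.29, edgeR quasi-likelihood test, adjusted p = 0.0152). Without control 1 Cd1d1 did not pass (edgeR adjusted p = 0.0935), in a fit where 0 of all tested genes passed. Without KO 1 a single KO library is left, so that fit is not read for a call. Keratinocyte markers, which define skin, were abundant in all libraries: the 9 markers summed to 55908 and 52313 CPM in KO, against 42581, 38812 and 47574 CPM in controls, and none passed the test. Across all 17472 tested genes, 657 passed at an adjusted p under 0.05.

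Of the 78 genes, 77 passed the filter on low counts and were tested. In KO skin 21 of them rose, 0 fell and 56 did not pass (edgeR, adjusted over all tested genes). Over all tested genes 2.71% were called higher and 1.05% were called lower. That split, 474 higher and 183 lower, was 268 and 974 when libraries were scaled by their size alone, where the median of all genes was -0.16 and 14 of the 77 Mrp genes rose and 0 fell. The log2 fold change was positive for 74 of the 77 and negative for 3, with a median of 0.34 and a range from -0.11 to 0.87, against a median of -0.02 for all tested genes. An unadjusted p under 0.05 (edgeR) was reached by 49 of the 77, all of them among the 74. Over all 17472 tested genes it was reached by 3819. The 21 were Mrpl53, Mrpl54, Mrpl46, Mrpl52, Mrpl28, Mrpl12, Mrps24, Mrpl14, Mrpl57, Mrpl41, Mrps33, Mrps16, Mrps11, Mrps12, Mrpl27, Mrps28, Mrpl22, Mrpl11, Mrps21, Mrpl34 and Mrpl17, of which those not described below are listed here for completeness and were chosen after their values were seen. The threshold fell within a continuous run of values: Mrpl17 lay just inside it (log2 fold change 0.46, adjusted p = 0.0499), and Mrps18a and Mrpl20 just outside (0.50 and 0.48, both with adjusted p = 0.0501).

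The pattern was shared by both KO libraries. In 63 of the 77 genes both KO libraries lay above every control library, where 19.9% of all tested genes did so. In none of the 77 did both lie below every control, where 20% of all tested genes did. KO 1 was the highest library for 43 genes and KO 2 for 28, control 2 was the highest for 6, and controls 1 and 3 were never the highest. Summed over the 78 genes, the level was 4262 and 4206 CPM in KO 1 and KO 2, against 3097, 3189 and 3080 CPM in controls 1, 2 and 3. As a share of raw counts, which no scaling factor affects, the genes took 0.399% and 0.398% in the KO libraries, against 0.330%, 0.332% and 0.314% in the controls. In RNA from whole skin, more cells with many mitochondria and more of these transcripts per cell cannot be told apart.

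**Figure D1:**
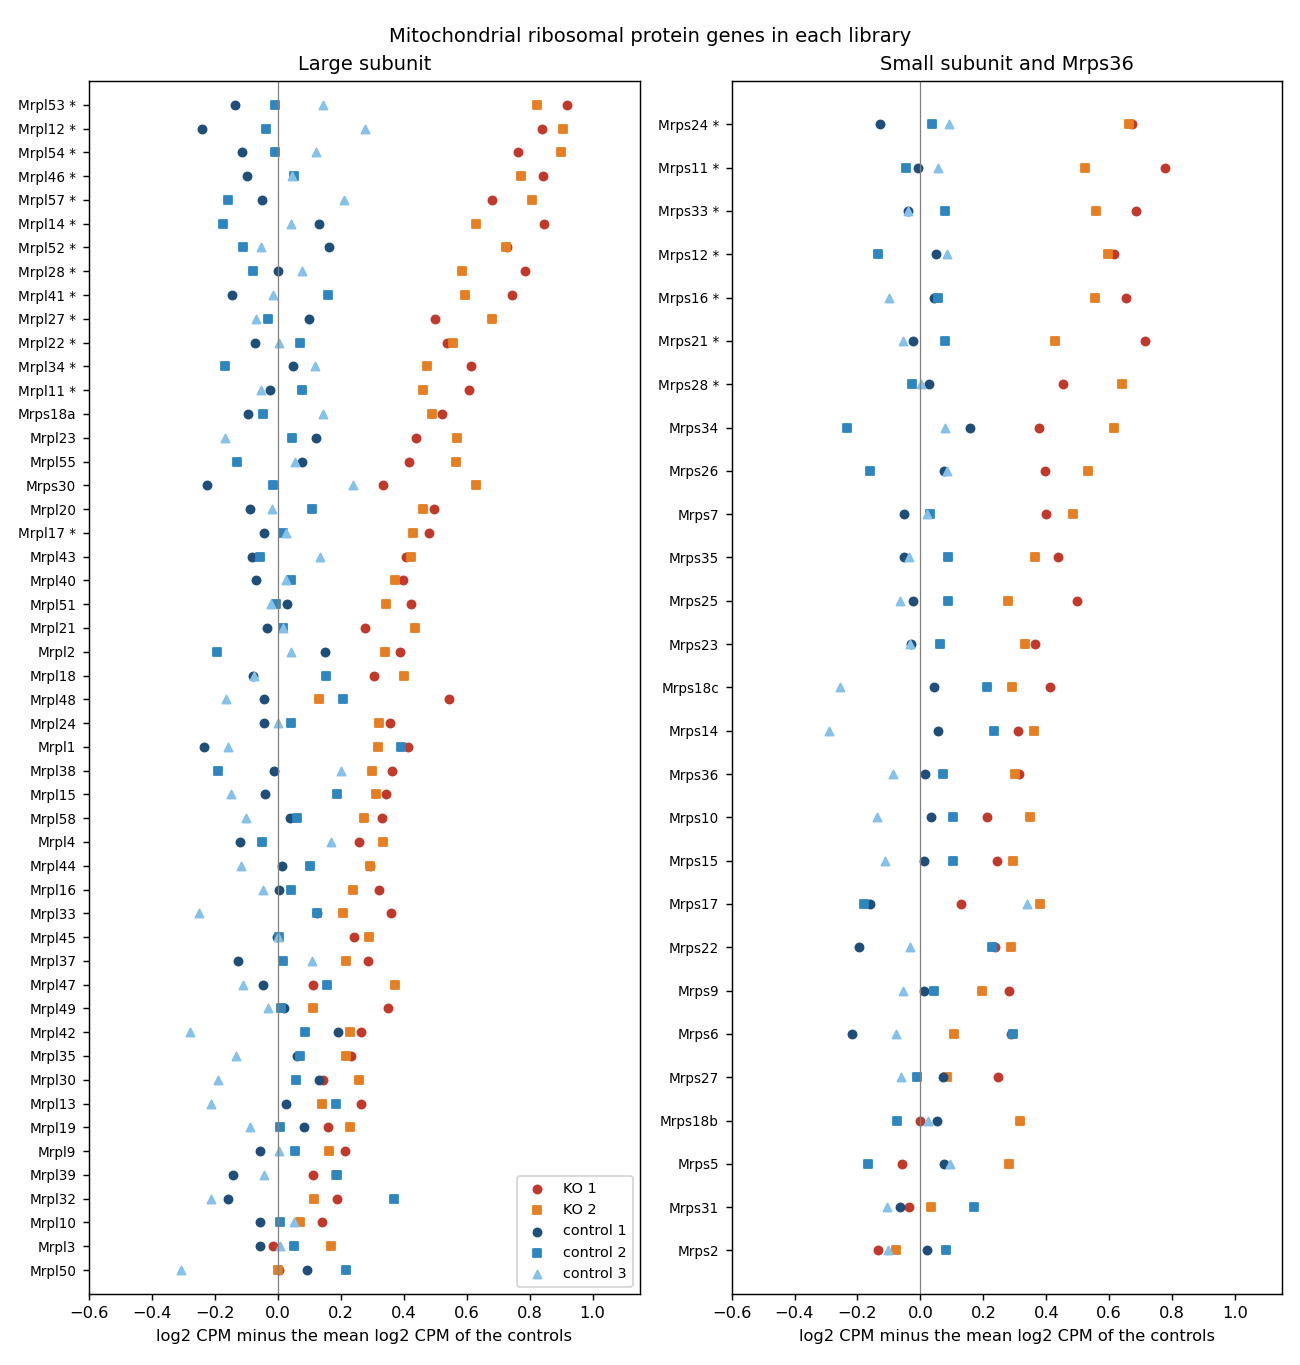
Each row is 1 tested gene and each symbol 1 library, and the horizontal axis gives its log2 CPM minus the mean log2 CPM of the 3 controls. Genes are split by subunit and ordered by log2 fold change, and an asterisk marks an adjusted p under 0.05. In most rows both KO libraries (red circles and orange squares) sit to the right of all controls (blue), and the separation narrows to overlap at the bottom of each panel, where Mrps2 and Mrpl50 lie.

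The calls rested on few libraries. Without control 1, 0 of the 77 genes passed edgeR's test, where 0 of all tested genes passed. In that fit 34 of the 77, and 2253 of all tested genes, had an unadjusted p under 0.05. Without KO 1 or KO 2 a single KO library is left, so those fits are read by their medians alone. With control 2 left out 29 rose, where 4.81% of all tested genes were higher and 2.99% lower. With control 3 left out 40 rose, where 10.6% of all tested genes were higher and 8.25% lower. The median log2 fold change of the genes moved little in these fits, between 0.34 and 0.38. With the full set of libraries, DESeq2 called 34 of the genes higher and 0 lower, with 6.23% of all tested genes higher and 4.12% lower. Limma voom called 52 higher and 0 lower, with 14.9% of all tested genes higher and 11.8% lower.

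Sequence upstream of called genes is shown for 3 of the 10 members with the smallest p, chosen as the first with a RefSeq stretch before the gene start that is free of annotated exons, to show what lies upstream of genes that rose together. Each line gives the 250 bases before the gene start, 5′ to 3′ on the gene's strand, from RefSeq on GRCm38.p6. The capitals mark a match to the ETS core CCGGAAG, the kind of motif bound by the nuclear respiratory factor NRF2/GABP, searched on both strands. Where a line has no capitals, no match to any of the motifs searched was found in these letters.
Mrpl52, chr14:54426659-54426908, plus strand: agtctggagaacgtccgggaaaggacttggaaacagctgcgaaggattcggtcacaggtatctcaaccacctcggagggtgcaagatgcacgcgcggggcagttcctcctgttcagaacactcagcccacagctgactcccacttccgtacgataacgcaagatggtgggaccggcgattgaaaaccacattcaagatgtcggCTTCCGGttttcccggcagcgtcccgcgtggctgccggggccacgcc
Mrps24, chr11:5707702-5707951, minus strand: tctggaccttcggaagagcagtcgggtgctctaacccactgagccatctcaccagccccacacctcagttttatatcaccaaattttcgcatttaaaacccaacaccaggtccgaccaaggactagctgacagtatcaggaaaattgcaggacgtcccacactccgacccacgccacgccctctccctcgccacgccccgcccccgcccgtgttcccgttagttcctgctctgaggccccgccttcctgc
Mrpl41, chr2:24975099-24975348, minus strand: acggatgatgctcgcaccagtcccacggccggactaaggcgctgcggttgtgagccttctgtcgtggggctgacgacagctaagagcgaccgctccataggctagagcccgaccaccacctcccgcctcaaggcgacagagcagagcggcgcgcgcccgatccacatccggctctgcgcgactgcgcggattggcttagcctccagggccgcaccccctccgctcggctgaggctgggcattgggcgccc
The match upstream of Mrpl52 reads CTTCCGG on the gene's strand and begins 47 bases before the gene start.

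Over the whole family, 69 of the 78 genes had at least 1 RefSeq window of 300 bases, from 250 before to 50 after a gene start, and these made 75 windows. The ETS core was found in 26 of them (34.7%), against 8.86% of 32851 windows of all genes. The core of the nuclear respiratory factor NRF1 site (GCATGCGC) was found in 8 (10.7%), against 2.71% of all windows. The core of the YY1 site (AAGATGGCG) was also found in 8 (10.7%), against 1.40% of all windows. The ETS core was in the window of 11 of the 19 called genes that had one, and the NRF1 and YY1 cores in 2 each. The ETS and YY1 cores can share the letters AAG where they lie end to end. A match describes letters and not a bound factor, and motif content was not compared between called and uncalled genes by a test.

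Proteins of the large subunit stalk and its base had some of the highest fold changes. Mrpl12, the stalk protein that binds translation factors and has also been reported to bind the mitochondrial RNA polymerase, had 72.4 and 75.9 CPM in KO, against 34.2, 39.4 and 49.0 CPM in controls. The KO libraries agreed closely and the controls were spread, but the groups did not overlap. Its log2 fold change was 0.86 (SE 0.15, edgeR adjusted p = 0.0216), a level 1.82-fold higher.

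Mrpl53 and Mrpl54, mitochondria-specific proteins near the stalk base, had the smallest p of the family. Mrpl53 had 93.9 and 87.9 CPM in KO, against 45.1, 49.4 and 54.8 CPM in controls (log2 fold change 0.87, SE 0.12, edgeR adjusted p = 0.0163). Mrpl54 had 90.8 and 99.8 CPM in KO, against 49.5, 53.2 and 58.2 CPM in controls (0.83, SE 0.12, edgeR adjusted p = 0.0171). For both genes each KO library was far above the highest control. Most exon bases of Mrpl53 also belong to the annotated genes Ccdc142os, on the opposite strand, and Gm42688, so its reads are uncertain, while Mrpl54 has no such overlap.

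Of the 5 genes of the stalk region, 4 rose, with a median log2 fold change of 0.83. The fourth was Mrpl11, the protein that carries the stalk base, with 76.8 and 69.4 CPM in KO, against 49.6, 53.1 and 48.6 CPM in controls (0.53, SE 0.12, edgeR adjusted p = 0.0348). Mrpl10, the protein on which the copies of Mrpl12 assemble, did not pass, with 44.4 and 42.3 CPM in KO, against 38.7, 40.4 and 41.7 CPM in controls (0.11, adjusted p = 0.623). Mrpl10 and Mrpl11 were chosen after their values were seen, and the stalk genes were not tested as a set. Mrpl53 and Mrpl54 have transcripts of 695 and 604 bases, and fold change fell with length across the table (given below). With offsets on transcript length and GC content 2 of the 5, Mrpl12 and Mrpl11, passed (edgeR). The median was then 0.33, and 2.13% of all tested genes were called higher.

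In the central protuberance, 3 of 8 genes rose, with a median log2 fold change of 0.37. Mrpl46 had 42.4 and 40.4 CPM in KO, against 22.1, 24.5 and 24.4 CPM in controls (log2 fold change 0.81, SE 0.12, edgeR adjusted p = 0.0171). Mrpl52 had 113 CPM in both KO libraries, against 76.3, 63.2 and 65.7 CPM in controls (0.72, SE 0.12, edgeR adjusted p = 0.0203). In both genes the groups were apart and the KO libraries differed little from each other. Exons of Mrpl46 overlap those of its neighbour Mrps11 on the opposite strand. Mrps11, of the small subunit, was itself called (0.66, adjusted p = 0.0261), so without a known strand setting reads of the pair may be mixed.

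Mrpl58, also called Ict1, is a peptidyl-tRNA hydrolase that became a ribosomal protein of the central protuberance and rescues stalled ribosomes. It had 52.3 and 50.3 CPM in KO, against 42.7, 43.4 and 38.8 CPM in controls. The groups did not overlap, but the log2 fold change of 0.30 (SE 0.12) did not pass (edgeR adjusted p = 0.163).

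Further large subunit genes among the 10 with the smallest p were Mrpl28, Mrpl14, Mrpl57 and Mrpl41. Mrpl28 had 88.2 and 76.8 CPM in KO, against 51.2, 48.5 and 54.0 CPM in controls (log2 fold change 0.69, SE 0.12, edgeR adjusted p = 0.0213). Mrpl14, which lies at the subunit interface, had 124 and 107 CPM in KO, against 75.6, 61.1 and 71.0 CPM in controls (0.74, SE 0.13, edgeR adjusted p = 0.0227). In both, KO 1 was the higher of the KO libraries and neither KO library reached down to a control.

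The other two are mitochondria-specific proteins. Mrpl57 had 100 and 110 CPM in KO, against 60.6, 56.2 and 72.6 CPM in controls (log2 fold change 0.74, SE 0.13, edgeR adjusted p = 0.0231). Mrpl41 had 135 and 122 CPM in KO, against 72.9, 89.9 and 79.8 CPM in controls (0.67, SE 0.13, edgeR adjusted p = 0.0258). The groups were apart for both genes.

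Around the exit tunnel 2 of 6 genes rose, Mrpl22 (log2 fold change 0.55, edgeR adjusted p = 0.0328) and Mrpl17, and the median was 0.40. Mrpl45, which anchors the ribosome to the inner membrane beside the tunnel exit, had 34.7 and 35.9 CPM in KO, against 29.3, 29.4 and 29.4 CPM in controls (0.27, SE 0.11, edgeR adjusted p = 0.202). The controls were almost identical and both KO libraries lay above them, yet the gene did not pass. Of the 3 genes classed as around the peptidyl transferase centre none rose, and their log2 fold changes ran from 0.08 to 0.36. Each gene was given a single region, and Mrpl27, which rose (0.59, edgeR adjusted p = 0.0291), was counted in the central protuberance.

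In the small subunit, Mrps24 and Mrps12 lie at the messenger entrance and the decoding centre. Mrps24 had 97.9 and 97.4 CPM in KO, against 56.2, 63.1 and 65.4 CPM in controls (log2 fold change 0.67, SE 0.12, edgeR adjusted p = 0.0219). Mrps12, whose bacterial relative is the site of streptomycin resistance mutations, had 74.7 and 73.7 CPM in KO, against 50.5, 44.4 and 51.7 CPM in controls (0.60, SE 0.12, edgeR adjusted p = 0.0267). The KO values of each gene nearly coincided and stood above all controls. Exons of Mrps24 overlap those of Urgcp on the same strand.

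Other small subunit genes varied. Mrps11 (log2 fold change 0.66), Mrps33 (0.62), Mrps16 (0.60), Mrps21 (0.58) and Mrps28 (0.55) also passed (edgeR), chosen here after their values were seen. Mrps5, at the messenger entrance too, had 13.5 and 17.1 CPM in KO, against 14.8, 12.5 and 15.0 CPM in controls (log2 fold change 0.12, adjusted p = 0.702), and its groups overlapped. None of the 4 genes of the small subunit head passed, although both KO libraries were above every control in all 4, with a median of 0.30. As whole subunits, 14 of 50 tested large subunit genes and 7 of 26 small subunit genes rose, with medians of 0.35 and 0.34. By origin, 14 of 45 classed with a bacterial orthologue and 7 of 31 classed as mitochondria-specific rose, with medians of 0.34 and 0.38. The 31 include Mrps18a and Mrps18b, relatives of a bacterial protein described below, neither of which passed. These differences between classes were not tested.

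Mammals have 3 relatives of the bacterial protein S18, each built into a different ribosomal position, and the 3 genes had different levels and values. Mrps18a, whose protein sits in the large subunit despite its name, had 41.1 and 40.2 CPM in KO, against 26.8, 27.7 and 31.6 CPM in controls (log2 fold change 0.50, SE 0.12, edgeR adjusted p = 0.0501). Mrps18c, the closest counterpart of the bacterial protein, had 69.0 and 63.4 CPM in KO, against 53.4, 60.01 and 43.4 CPM in controls (0.34, SE 0.15, edgeR adjusted p = 0.207). Mrps18b had 3.43 and 4.27 CPM in KO, against 3.56, 3.26 and 3.49 CPM in controls (0.16, SE 0.21, edgeR adjusted p = 0.690). The groups were apart for Mrps18a and Mrps18c and overlapped for Mrps18b, but none of the 3 passed and the differences between them were not tested.

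Mrps36 carries a ribosomal name but is now known as a subunit of the 2-oxoglutarate dehydrogenase complex. It had 22.3 and 22.1 CPM in KO, against 18.1, 18.9 and 16.9 CPM in controls (log2 fold change 0.30, SE 0.12, edgeR adjusted p = 0.190). Its KO values were both higher than all controls without passing.

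The 3 genes with negative values were Mrps2, Mrpl50 and Mrps31, and their groups overlapped. Mrps2 had 16.3 and 17.0 CPM in KO, against 18.2, 18.9 and 16.7 CPM in controls (log2 fold change -0.11, SE 0.13, edgeR adjusted p = 0.666). Mrpl50 had 33.0 and 32.9 CPM in KO, against 35.1, 38.2 and 26.6 CPM in controls (-0.02, SE 0.16, edgeR adjusted p = 0.963). Mrps31 had 13.6 and 14.3 CPM in KO, against 13.4, 15.7 and 13.0 CPM in controls (-0.01, SE 0.14, edgeR adjusted p = 0.984).

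Levels differed widely within a particle whose proteins are each present in a few copies at most. Per kilobase of the longest annotated coding transcript, the mean over all libraries was 186 CPM for Mrpl52, 173 CPM for Mrps21, 163 CPM for Mrpl33 and 136 CPM for Mrpl14. At the low end of the tested genes were Mrps17 with 0.70, Mrps5 with 3.25, Mrps18b with 3.34 and Mrpl47 with 3.84 CPM per kilobase, against a median of 27.1 over the 77. In the controls alone the order at the top differed, with Mrpl33 at 151, Mrpl52 at 148 and Mrps21 at 145 CPM per kilobase. Where the annotated isoform is longer than the one expressed, as it may be for Mrps17 (5061 bases for a coding sequence of 360), this measure understates the level. Genes of like level differed in their call: Mrps21 rose (0.58, SE 0.12, edgeR adjusted p = 0.0351), while Mrpl33 had 91.8 and 82.6 CPM in KO, against 78.1, 78.0 and 60.2 CPM in controls (0.27, adjusted p = 0.288).

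**Figure D2:**
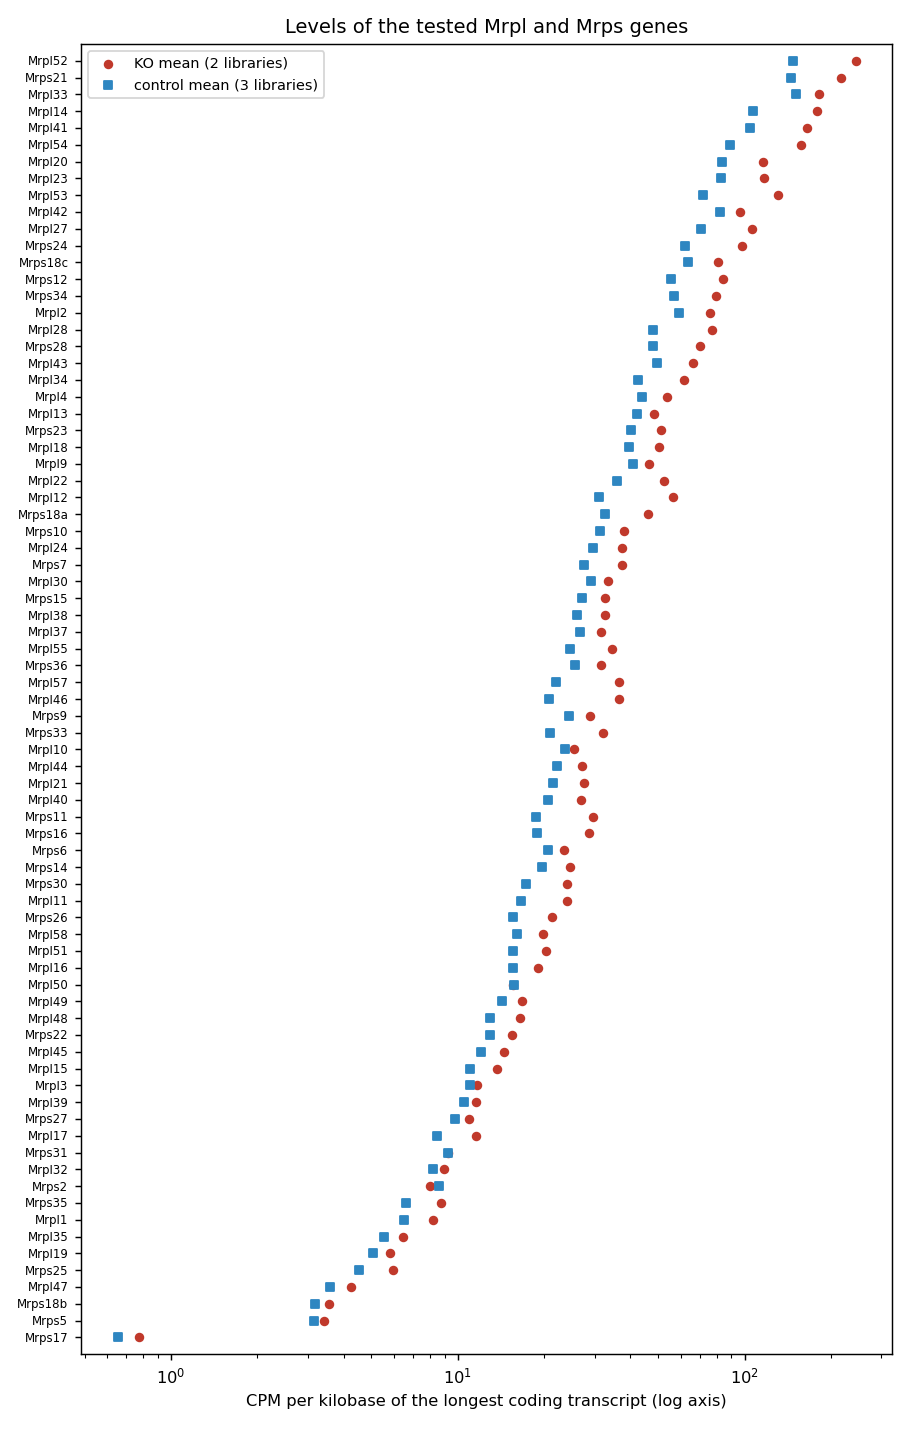
The horizontal log axis gives the mean CPM per kilobase of the longest coding transcript in the KO libraries (red circles, n = 2) and in the control libraries (blue squares, n = 3) for the 77 tested genes, in order of their level. The red circle lies to the right of the blue square along almost the whole order, and Mrps17 stands apart at the bottom.

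Mrpl36 was the gene left untested. It had 7 and 4 counts in KO, against 1, 2 and 0 counts in controls, or 0.137 and 0.0934 CPM in KO, against 0.0119, 0.0261 and 0 CPM in controls. The KO libraries held a few reads and the controls 2 reads or fewer. Mrpl36 shares exon bases with the complex I gene Ndufs6 on the opposite strand, and no fold is given.

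Genes rose both with and without exons shared with a neighbour. In all, 33 of the 78 genes share exon bases with another annotated gene, and the sources used here do not say how reads over such bases were assigned. Besides the overlaps given above, further named genes share exon bases with a gene on the opposite strand. These are Mrpl9 (Oaz3), Mrpl10 (Gm11574), Mrpl12 (Gm16755), Mrpl14 (Tmem63b), Mrpl24 (Rrnad1), Mrpl27 (Eme1), Mrpl47 (Actl6a and Ndufb5), Mrpl49 (Syvn1), Mrpl58 (Ict1os) and Mrps18b (Gm16279). Mrps18c (Gm43511) and Mrpl33 (Gm43809) overlap a gene on their own strand. Among the 45 genes with no overlap 14 rose, with a median log2 fold change of 0.34, and among the 32 tested genes with an overlap 7 rose, with a median of 0.35. Reads from processed pseudogenes, which several of these genes have, could also have been counted in part with the parent gene.

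Neighbours on the genome gave a comparison of position. Of the 78 genes, 18 have a protein-coding gene that starts within 1000 bases on the opposite strand, an arrangement in which both genes may use 1 promoter region. Of the 18 partners 1 rose and 0 fell, 9 of 18 had a positive value and the median log2 fold change was -0.01, against 0.29 for the Mrp genes of the same pairs. These values are from the fit without offsets. Transcript length, which moved with fold change across the table (given below), was not compared between partners and Mrp genes, and the difference was not tested. Mrps12 starts 172 bases from Sars2, which charges mitochondrial transfer RNA with serine, and Sars2 had a log2 fold change of 0.05 (adjusted p = 0.898). The partner that rose was Fau, a cytosolic ribosomal protein gene beside Mrpl49 (0.75, adjusted p = 0.0203), while Mrpl49 itself had 0.24 (adjusted p = 0.296). Fau, Sars2 and Mrpl49 were chosen after their values were seen.

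On chromosome 3, which carries Cd1d1 and where a knockout line can keep sequence of another strain, 5 members lie. Mrpl24 is 0.906 Mb from Cd1d1 and had 50.6 and 49.3 CPM in KO, against 38.3, 40.6 and 39.6 CPM in controls (log2 fold change 0.34, edgeR adjusted p = 0.110). Mrpl9 and Mrps21, at 7.43 and 8.85 Mb, had 0.19 and 0.58. Mrpl47 and Mrps28, at 54.3 and 78.1 Mb, had 0.24 and 0.55. Of these 5, Mrps21 and Mrps28 passed, and distance from Cd1d1 and the values followed no order. These genes, apart from Mrps21 and Mrpl47, were chosen after their values were seen.

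Transcript length moved with the groups across the whole table. Spearman's rho between a gene's deviation from the mean of the libraries and its transcript length was -0.47 in both KO libraries, against 0.46, 0.31 and 0.21 in controls 1 to 3. Across genes, which are not independent replicates, the rho of log2 fold change with length was -0.57 over 15809 genes and -0.42 over the 77 Mrp genes. The longest coding transcripts of the Mrp genes are short, with a median of 1339 bases, against 3026 for all tested genes with a length.

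Within classes of length, the median of the Mrp genes lay close to that of all genes for short transcripts and above it for long ones, a difference that was not tested. Under 750 bases, 7 of 11 Mrp genes rose with a median log2 fold change of 0.55, and 26% of all genes in the class rose with a median of 0.53. From 750 to under 1000 bases, 5 of 12 rose with a median of 0.50, and of all genes 21.1% with a median of 0.41. From 1000 to under 1500 bases, 5 of 22 rose with a median of 0.34, and of all genes 8.50% with a median of 0.29.

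From 2000 bases on the medians stood apart. From 1500 to under 2000 bases, 0 of 7 Mrp genes rose (edgeR) with a median log2 fold change of 0.19, and of all genes 1.72% with a median of 0.16. From 2000 to under 3000 bases, 2 of 8 rose with a median of 0.28, and of all genes 0.880% with a median of 0.04. At 3000 bases or more, 2 of 17 rose with a median of 0.34, and of all genes 0.262% with a median of -0.16. A long annotated isoform is not always the expressed one: Mrpl17 has an annotated transcript of 7300 bases for a coding sequence of 528. By length of the coding sequence alone, the Mrp medians were above those of all genes in each of the 5 classes, from 0.46 against 0.37 under 400 bases to 0.24 against -0.10 at 1000 bases or more. The part of the length trend in the higher Mrp values was not tested beyond the offsets given next.

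**Figure D3:**
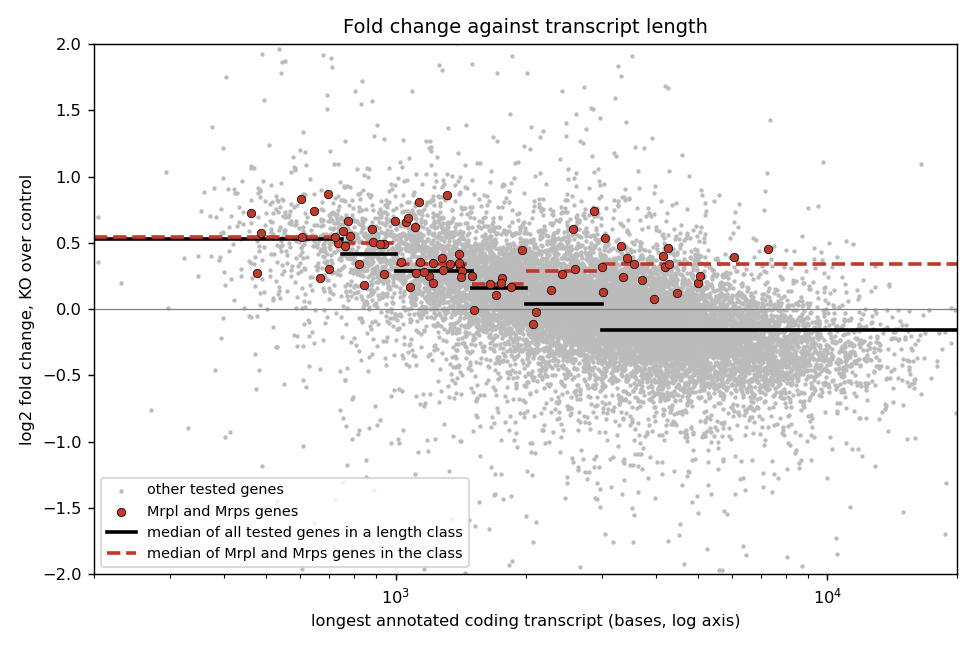
Each point is a tested gene, with the length of its longest annotated coding transcript on a log axis and its log2 fold change, KO over control, on the vertical axis, which ends at 2 and -2, so genes beyond those values are not drawn. Black lines give the median of all genes in each length class and red dashed lines that of the Mrp genes (red points). The lines nearly meet for the shortest class (0.55 and 0.53) and are farthest apart for the longest (0.34 and -0.16).

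Offsets fitted over all genes to each library's trend on transcript length and GC content left fewer and partly different calls. With these offsets 14 of the 77 genes rose and 0 fell, against 2.13% of all tested genes called higher and 0.647% called lower, and the median log2 fold change was 0.12. By region 2 of 8 genes of the central protuberance and 1 of 6 of the exit tunnel were called, with medians of 0.10 and 0.18. Only 5 of the 21 genes were still called, Mrpl46 (0.48), Mrpl12 (0.56), Mrps16 (0.62), Mrpl11 (0.59) and Mrpl17 (0.78), and the other 9 called in this fit have annotated transcripts of 2999 to 6073 bases. Mrpl53, Mrpl54 and Mrpl52, with transcripts of 695, 604 and 463 bases, no longer passed, and Mrps21 and Mrpl34 had values just under 0. Over all genes the rho of log2 fold change with length was then 0.02, but over the Mrp genes it was 0.62, so within the family values were then higher for genes with longer annotated transcripts, and 20 of the 77 had a negative value.

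With offsets on length alone none of the Mrp genes passed and the median was 0.09. An unadjusted p under 0.05 (edgeR) was reached by 24 Mrp genes and by 2000 of all tested genes. In all 13 genes passed, 0.0572% of those tested as higher and 0.0172% as lower. Single values stayed large in that fit without passing, such as 0.74 for Mrpl57 (adjusted p = 0.0793) and 0.73 for Mrpl17 (adjusted p = 0.0511). With offsets on coding length and GC content, an alternative chosen after seeing the data, 8 rose: Mrpl53 (0.45), Mrpl46 (0.66), Mrpl28 (0.40), Mrpl12 (0.56), Mrps16 (0.36), Mrpl22 (0.38), Mrpl11 (0.37) and Mrps35 (0.38). The median was then 0.17, and 1.75% of all tested genes were higher and 1.29% lower. Among the 21 genes, Mrpl46, Mrpl12, Mrps16 and Mrpl11 passed with both kinds of length paired with GC.

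**Figure D4:**
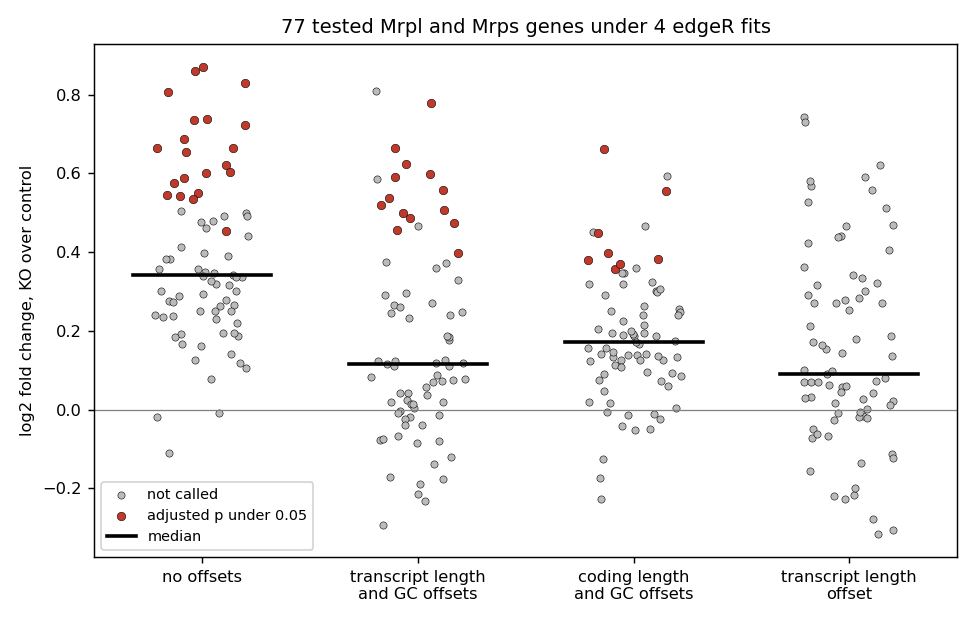
Log2 fold changes of the 77 tested Mrp genes, KO over control, in 4 edgeR fits: without offsets, with offsets on transcript length and GC content, on coding length and GC content, and on transcript length alone. Red points passed an adjusted p of 0.05 and bars are medians, which are 0.34, 0.12, 0.17 and 0.09.

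Mitoribosomal proteins whose symbols do not begin with Mrp gave a small companion list of 5 genes, of which 2 rose and 0 fell. Gadd45gip1, which encodes a mitochondria-specific protein of the large subunit, had 56.7 and 54.3 CPM in KO, against 32.8, 28.0 and 33.4 CPM in controls (log2 fold change 0.82, SE 0.12, edgeR adjusted p = 0.0186). Aurkaip1, a small subunit protein, had 96.4 and 99.7 CPM in KO, against 70.9, 64.4 and 70.9 CPM in controls (0.51, SE 0.11, edgeR adjusted p = 0.0368). The groups were apart in both, and with length and GC offsets Gadd45gip1 still passed (0.74, adjusted p = 0.0015) while Aurkaip1 did not (0.15, adjusted p = 0.337). Dap3, a small subunit protein that was not called without offsets (0.22), passed with them (0.37, adjusted p = 0.0234), a gene chosen after its value was seen. Ptcd3, chosen in the same way, had the only negative value of the list (log2 fold change -0.26, SE 0.15, edgeR adjusted p = 0.333). Its 17.5 and 19.3 CPM in KO lay below every control (20.7, 25.7 and 19.7 CPM). With length and GC offsets Ptcd3 had -0.20 (adjusted p = 0.334).

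The rest of the mitochondrial translation system showed no calls in the fit without offsets. Of 26 tested genes for assembly of the ribosome and modification of its RNA, 0 rose and 0 fell by edgeR, 4 had an unadjusted p under 0.05 and the median log2 fold change was 0.10. None passed among 15 translation factors (median 0.02), 22 genes that charge mitochondrial transfer RNAs (0.05) and 18 genes of mitochondrial DNA transcription and replication (-0.01), where 1, 4 and 3 had an unadjusted p under 0.05. Over all tested genes 2.71% were called higher, 1.05% were called lower, and 3819 of 17472 had an unadjusted p under 0.05. At such shares a list of 15 to 26 genes would hold few calls or none. Among the products of the mitochondrial genome, 0 of 13 messenger RNAs passed, none had an unadjusted p under 0.05, and the median was 0.01. The ribosomal RNAs mt-Rnr1 and mt-Rnr2, which form the cores of the small and large subunits, had -0.16 and 0.03. The difference between them and the Mrp genes was not tested. The 4 lists of nuclear genes have median transcripts of 2138 to 3620 bases, longer than the 1339 of the Mrp genes, and the mitochondrial messages a median of 784. With length and GC offsets, 1 assembly gene, Malsu1 (0.53, adjusted p = 0.0132), 2 charging genes, Tars2 (0.42, adjusted p = 0.0406) and Gatb (0.48, adjusted p = 0.0456), and 1 gene of mitochondrial DNA maintenance, Ssbp1 (0.67, adjusted p = 0.0023), passed as higher, and 0 as lower (all 4 named with their values already known). In that fit no translation factor and no product of the mitochondrial genome passed. The median of the 13 mitochondrial messenger RNAs was then -0.23, with 1 of 13 positive. It was -0.39 with offsets on transcript length alone and 0.10 with offsets on coding length and GC content.

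**Figure D5:**
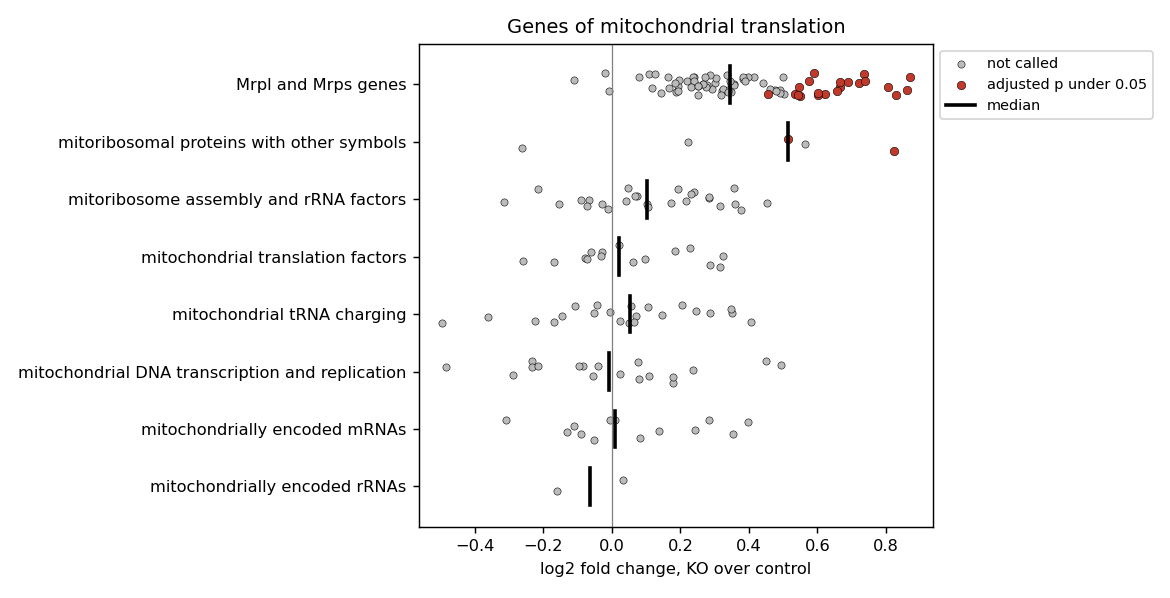
Log2 fold changes, KO over control, for the Mrp genes and 7 companion lists of mitochondrial gene expression, 1 point a gene, with a bar at the median of each list. Red points passed an adjusted p of 0.05, and apart from the Mrp genes they occur in the list of mitoribosomal proteins with other symbols.

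A pair of other gene sets with short messages was compared, the proteins of the cytosolic ribosome and a respiratory complex that holds products of the mitoribosome. Of 87 tested cytosolic ribosomal protein genes 38 rose and 1 fell, with a median log2 fold change of 0.52, and of 40 genes for subunits of respiratory complex I, 17 rose and 0 fell, with a median of 0.46. Their median transcripts had 906 and 952.5 bases. After correction for length and GC content 11 and 7 of their genes rose, at medians of 0.07 and 0.12, against 14 of the 77 Mrp genes at a median of 0.12. No difference between the 3 sets was tested.

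Markers of skeletal muscle, a tissue rich in mitochondria, had a higher sum in both KO libraries, and adipocyte markers are given beside them. Of 18 skeletal muscle markers 7 rose and 0 fell, with a median log2 fold change of 0.53, and their summed level was 8403 and 9345 CPM in KO, against 6624, 6539 and 6932 CPM in controls. Myl2, Pvalb and Myl3, a myosin light chain, the calcium buffer parvalbumin and a further light chain, had the smallest p and log2 fold changes of 1.31, 0.94 and 1.29, while 11 of the 18 did not pass and 2 were negative. With length and GC offsets 4 muscle markers rose, with a median of 0.19. Of 8 adipocyte markers 1 rose, Cfd (0.71), and the sum was 1279 and 1118 CPM in KO, against 811, 1070 and 676 CPM in controls. With length and GC offsets 0 of the 8 passed, and Cfd had 0.20 (edgeR adjusted p = 0.714). The part of muscle or fat in the higher Mrp values was not tested.

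Other markers did not separate the groups in the same way. The 12 hair follicle markers (keratins and trichohyalin) summed to 708 CPM in KO 1 and 22.5 CPM in KO 2, against 21.7, 16.3 and 28.9 CPM in controls, so the sum was far higher in KO 1 than in any other library. The Mrp genes had median deviations from the control mean of 0.36 in KO 1 and 0.34 in KO 2. The part of hair follicle content in the Mrp values was not tested. None of 7 fibroblast, 5 tested cartilage or 10 leukocyte markers passed (edgeR), with 1, 2 and 1 of them at an unadjusted p under 0.05. Over all 17472 tested genes 657 passed and 3819 had an unadjusted p under 0.05.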

How the data were processed

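RNA of ear skin was sequenced from 2 Cd1d KO and 3 control libraries. The deposited table holds raw read counts per Entrez gene, not normalized. Per the submitters' processing notes, the tools included FastQC, HISAT2 2.0.4 and DESeq2 1.16.1 with the build GRCm38 (mm10). Not given in the sources used here are the counting program, its strand setting, its handling of shared reads and any poly(A) selection. All columns were mapped to samples through their titles and descriptions (0 columns were left unused).

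From the counts, low genes were removed with filterByExpr (17472 left), libraries were scaled by TMM, and KO was tested against control with edgeR 4.0.16 (robust quasi-likelihood F test, R 4.3.3) with Benjamini-Hochberg adjustment over all tested genes (adjusted p under 0.05). CPM values use TMM-scaled library sizes, and edgeR's common biological variation (BCV) was 0.154. Symbols came from RefSeq for 25275 of 27179 identifiers, and transcript length, GC content and exon overlap from GENCODE on GRCm38 (90.5% of tested genes). Offsets were per-library smooth trends fitted with mgcv 1.9.3. The edgeR fit without offsets was tested before use on simulated counts that held no trend on length or GC content. The offset fits and the other alternatives were not tested in this way. Libraries of a group differed beyond sampling noise (chi-square over its degrees of freedom, 20.2 to 67.2), so none was treated as a duplicate.

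The members and the gene lists were chosen with earlier results of these data known. The text names the 10 members with the smallest p among those past the threshold with groups apart, the 4 highest and 4 lowest by level, the 3 most negative, Mrps18a, Mrps18b, Mrps18c, Mrps36, Mrpl12, Mrpl45, Mrpl58 and Mrps12 for their roles, members under the filter, and up to 3 passing genes of a companion list. Of 172 listed companion genes, 13 were matched by an older symbol and 1 was not found. Alternatives were other scalings and filters, robust estimation off, DESeq2 1.42.0, limma 3.58.1 voom with quality weights, the replicate number as a block, the offsets, a threshold of 0.1, members without exon overlap, and leaving out each replicate, where the spread of a single remaining KO library is taken from the controls.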

Additional observations from a re-analysis of the deposited data

How the results depend on the processing

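In every alternative that was run the median log2 fold change of the Mrp genes stayed positive and 0 of them were called lower. How many passed did not hold, and the sign of single genes changed with offsets: 3 of the 77 were negative without them, 20 with length and GC offsets, 21 with length offsets, 10 with coding length and GC offsets and 25 with the replicate block plus length and GC offsets. Leaving out each replicate in turn, the count of Mrp genes called higher ran from 0 to 40 against 21, their median from 0.34 to 0.38, the count of all genes called from 0 to 3277 against 657, and the log2 fold change of Cd1d1 from -2.83 to -2.39. Cd1d1 had -2.72 without KO replicate 1. Without control replicate 1 Cd1d1 had -2.73 and did not pass (edgeR adjusted p = 0.0935). The Mrp count fell to 0 on leaving out control replicate 1 (edgeR), where 0 of all tested genes passed. There 34 Mrp genes and 2253 of all tested genes had an unadjusted p under 0.05. The count was 29 and 40 on leaving out control replicates 2 and 3. Without KO replicate 1 or 2 a single KO library is left, so those fits are read by their medians alone.

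DESeq2 called 34 Mrp genes and 1808 genes in all, and limma voom 52 and 4662. Without a count filter 1036 genes passed, and a threshold of 0.1 gave 32 Mrp genes. With scaling to library size alone the median of all genes moved to -0.16 and the Mrp median to 0.19. In that scaling 14 Mrp genes rose, and 1242 genes were called, 268 higher and 974 lower, against 474 higher and 183 lower.

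With length and GC offsets the Mrp median was 0.12. With length offsets the count was 0, the median 0.091 and 13 genes passed in all. There 24 Mrp genes and 2000 of all tested genes had an unadjusted p under 0.05 (edgeR). With coding length and GC offsets, added after seeing the data, the count was 8 and the median 0.17, with 305 genes higher and 226 lower in all. Genes that were called and changed sign were Mrps21 (-0.0174) and Mrpl34 (-0.0773) with length and GC offsets, Mrps21 (-0.0158) and Mrpl34 (-0.0173) with length offsets, and Mrpl34 (-0.0414) with coding length and GC offsets. The cause of the lost calls was not tested.

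With the replicate number as a block 31 Mrp genes rose with a median of 0.35, and 2037 genes passed in all. Same-numbered libraries deviated together only weakly (correlations 0.016 and 0.064), so the numbers are not taken to pair the samples. With the replicate block plus length and GC offsets the count was 12, the median 0.12 and 352 genes passed in all, and Mrpl52 (-0.0183), Mrps21 (-0.046) and Mrpl34 (-0.0797) changed sign. Other scalings and filters, robust estimation off and leaving out members with exon overlap gave 14 to 27 Mrp genes.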
